A study of Homo sapiens with 10 samples.

Results

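The genes described here are 10 genes of the contractile apparatus and of the YAP response of fibroblasts. They were found by their symbols in the RNA-Seq and Ribo-Seq tables, and all 10 were present among the 11258 transcripts that both tables hold. Of these, 7 encode contractile proteins (ACTA2, TAGLN, CNN1, MYL9, TPM1, TPM2 and ACTG2) and 3 are commonly used as readouts of YAP activity (CTGF, CYR61 and ANKRD1). The rule for finding them uses symbols and no measured value. The genes and the lists set beside them were, however, chosen with earlier results of these data known. Counts of genes called are therefore descriptive. The cells were BJ cells, primary human fibroblasts immortalized by expression of hTERT, the catalytic subunit of telomerase. They were either untreated (control) or treated with nutlin-3a, a small molecule that keeps MDM2 from binding p53, for 2, 4, 6 or 19 h. Each condition was profiled by 1 RNA-Seq library of poly(A) RNA and 1 Ribo-Seq library of ribosome-protected fragments, 10 libraries in all. No difference below therefore has a replicate check, no p-value is given, and the stated errors cover counting alone.

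Smooth muscle alpha-actin (ACTA2), its relatives and the proteins that bind actin filaments form the stress fibres with which a fibroblast pulls on its surroundings, and high ACTA2 is the usual mark of a myofibroblast. Many of these genes are controlled by the serum response factor SRF and its coactivators of the MRTF family, which enter the nucleus when free actin monomers become scarce. SRF binds a DNA element called the CArG box. YAP and its paralog TAZ (gene symbol WWTR1) are coactivators held back by the Hippo kinases. On a stiff substrate or after serum they act through TEAD factors, which bind the sequence GGAATG, and CTGF, CYR61 and ANKRD1 are their best known targets.

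Promoter sequences, from 250 bases before to 50 bases after a start site, were taken from RefSeq (GRCh38.p14) for 7 of the 10 genes, all but TAGLN, MYL9 and CYR61 (RefSeq symbol CCN1). GGAATG, or CATTCC on the other strand, occurred in 14.0% of the 35116 promoters of the same length, at least 2 times in 1.37% and at least 3 times in 0.128%. The CTGF promoter (RefSeq symbol CCN2) held it 3 times and that of ANKRD1 2 times. The windows below show these matches in capitals, 5′ to 3′ on the strand of the gene.
CTGF, chr6:131951524-131951553, minus strand, match starting 169 bases before the start: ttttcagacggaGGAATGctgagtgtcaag
CTGF, chr6:131951459-131951488, minus strand, first match starting 104 and the next 95 bases before the start: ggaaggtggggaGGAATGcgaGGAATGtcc
ANKRD1, chr10:90921290-90921319, minus strand, match starting 220 bases before the start: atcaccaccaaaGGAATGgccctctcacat
ANKRD1, chr10:90921198-90921227, minus strand, match starting 128 bases before the start: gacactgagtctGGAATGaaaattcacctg

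The CArG box, which reads alike on both strands, was present in 1.29% of promoters, and in 18.9% when 1 base outside the consensus was allowed. No CArG match overlapped a GGAATG match in the windows printed. ACTG2 held 2 full CArG boxes. Of the 2 promoters listed for ACTA2, the second held a GGAATG and 2 elements that were 1 base off the CArG consensus, and the first held neither motif. The windows show, in capitals, both full matches of ACTG2 and the ACTA2 element that lies farther from the start.
ACTG2, chr2:73892888-73892917, plus strand, full match starting 110 bases before the start: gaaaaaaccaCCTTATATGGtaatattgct
ACTG2, chr2:73892925-73892954, plus strand, full match starting 73 bases before the start: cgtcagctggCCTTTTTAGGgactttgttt
ACTA2, chr10:88952875-88952904, minus strand, 1 base off, starting 121 bases before the start: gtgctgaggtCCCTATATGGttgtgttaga
The promoters of CNN1, TPM1 and TPM2 held neither motif in this window. A match in letters is a description of the sequence and does not show that a factor binds there.

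The libraries passed the checks on treatment and cell type. CDKN1A, which encodes the cell-cycle inhibitor p21 and is induced by p53, moved from 68.6 in untreated cells to 1316 after 19 h in RNA-Seq, and MDM2 from 14.9 to 259. These and the other levels are FPKM, which relates the reads of a gene to its transcript length and to the depth of the library. All 12 fibroblast markers listed, among them COL1A1, VIM and FN1, were at or above 5 FPKM in both control libraries. Of 6 smooth muscle markers 5 were in the RNA-Seq table and only LMOD1 was above 5 FPKM in the control (13.9), while MYH11, the smooth muscle myosin, was at 0.278. Of 8 endothelial and epithelial markers 2 were in the RNA-Seq table, both below 1 FPKM, and none was in the Ribo-Seq table. Library totals recovered from the values were about 23845560 to 27554289 reads in RNA-Seq and 7744899 to 14460727 in Ribo-Seq, the lowest being that of 19 h. A change is called when it exceeds about 1.8 SDs of the changes of genes of similar level. For ACTA2 in RNA this put the cut-off at 0.33 on the log2 scale after 2 h and at 0.88 after 19 h. Calls were made for the 7015 genes that reached 5 FPKM in RNA-Seq and in Ribo-Seq, each in 1 library or more. CNN1, ANKRD1 and ACTG2 stayed below that level, so 7 of the 10 genes were tested.

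The tested genes fell into 3 time courses. ACTA2 rose from 4 h and stayed high to 19 h, in RNA and in ribosome density alike. CTGF and CYR61 were highest at 2 h. TAGLN, MYL9, TPM1 and TPM2 were not called in RNA at any time, and their ribosome density was highest at 4 h. In RNA, 2, 2, 1 and 1 of the 7 genes were called after 2, 4, 6 and 19 h, all higher. Over all tested genes 3.36%, 3.51%, 1.63% and 1.61% were called higher in RNA at these times. In ribosome density, the Ribo-Seq FPKM, the numbers were 2, 5, 1 and 1, again all higher, beside 4.82%, 6.22%, 2.62% and 1.91% of all tested genes called higher. In translational efficiency (TE), the log2 ratio of Ribo-Seq to RNA-Seq FPKM, they were 2, 4, 0 and 0, beside 5.49%, 12.1%, 4.01% and 2.55%. These are bulk libraries, in which fewer cells of a type and less RNA per cell cannot be told apart.

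**Figure D1:**
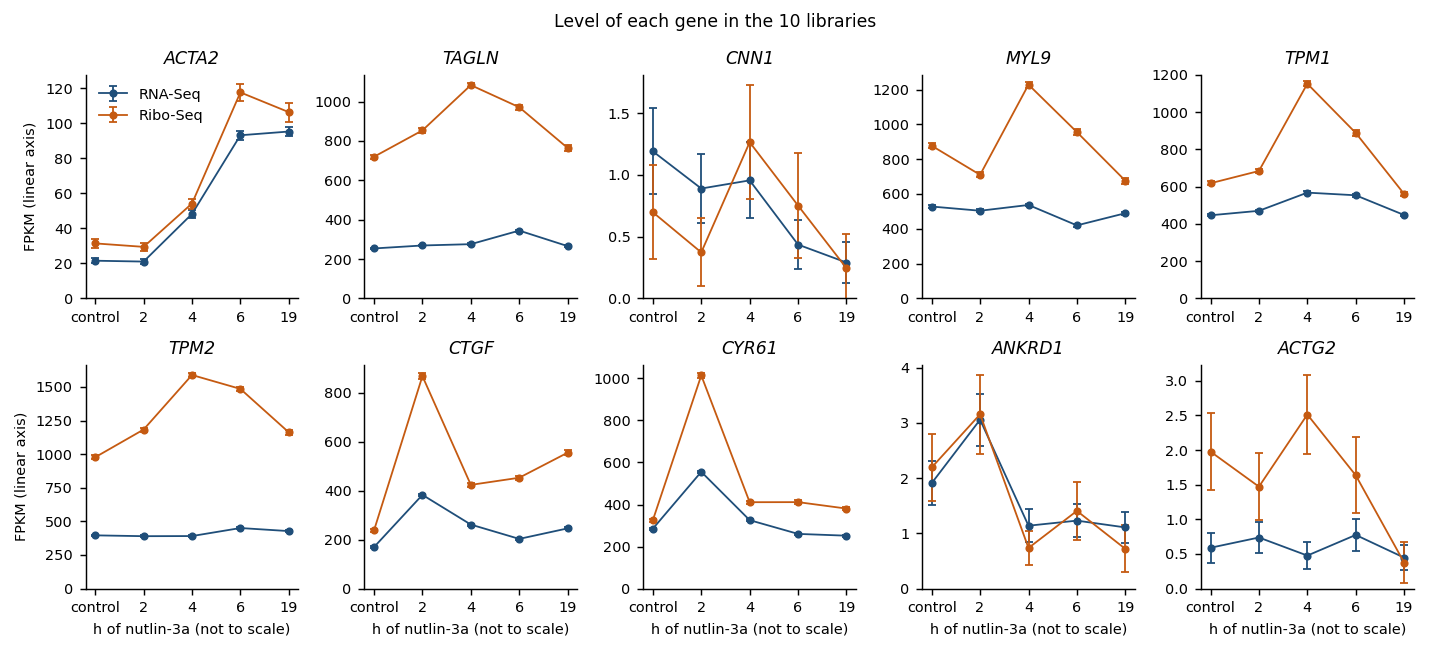
FPKM (linear axes from 0) of each of the 10 genes against hours of nutlin-3a, in RNA-Seq (blue) and Ribo-Seq (orange), with 1 library per point. Bars are 95% counting intervals by the normal approximation. ACTA2 goes up between 2 h and 6 h, CTGF, CYR61 and ANKRD1 peak at 2 h, and the Ribo-Seq values of TAGLN, MYL9, TPM1 and TPM2 peak at 4 h.

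ACTA2 (ENSG00000107796) stood at 21.5 FPKM in the RNA-Seq control and 21.0, 48.3, 93.3 and 95.4 after 2, 4, 6 and 19 h. Its ribosome density was 31.4 FPKM in the control and 29.4, 54.2, 118 and 106 after 2, 4, 6 and 19 h. Control and 2 h were thus the low pair and 6 h and 19 h the high pair in both assays, with 4 h in between. The log2 change of RNA against control was -0.03 ± 0.066 (counting SE), 1.17 ± 0.058, 2.12 ± 0.053 and 2.15 ± 0.053 after 2, 4, 6 and 19 h. The 19 h value is a 4.43-fold rise with a 95% counting interval of 4.13 to 4.77. From 6 h to 19 h the RNA ratio was 1.02 (0.981 to 1.07), so most of the rise was in place by 6 h. Among the 7015 tested genes this was the 25th highest RNA change at 6 h and the 27th highest at 19 h. Ribosome density rose by 0.79 ± 0.069 on the log2 scale at 4 h, by 1.91 ± 0.065 at 6 h and by 1.76 ± 0.068 at 19 h.

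The rise of ribosome density in ACTA2 was somewhat smaller than that of its RNA. Its TE change was -0.38 ± 0.090 at 4 h, -0.21 ± 0.084 at 6 h and -0.39 ± 0.086 at 19 h. None of these was called. At 4 h the median TE change of all tested genes was 0.18, and relative to that median the value for ACTA2 was -0.56, which was called lower, as were 3.35% of tested genes. Only reads with a unique hit had been counted, and the actin genes have similar coding sequences. The actin values therefore carry an uncertainty that counting errors do not show. In RefSeq, ACTA2 also overlaps the protein-coding gene FAS on the opposite strand and the antisense RNA ACTA2-AS1. Neither was found by its symbol in the data used, so neither was analysed here. Their part in the ACTA2 values was not tested. Strand was not stated for the RNA-Seq libraries, so reads of the shared stretches cannot be told apart.

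The time course of ACTA2 was closer to those of genes outside the contractile set than to any of the other tested genes described here. Likeness was taken as the root mean square difference over the 8 log2 changes, 4 of RNA and 4 of density. The 3 nearest genes were RRM2B, the p53-induced subunit of ribonucleotide reductase (0.25), CMBL, a carboxymethylenebutenolidase homolog (0.26), and APOBEC3C, a cytidine deaminase (0.28). RRM2B RNA was at 9.66 FPKM in untreated cells and at 10.2, 26.5, 42.3 and 41.3 after 2, 4, 6 and 19 h. The nearest of the other tested genes described here was CTGF, at rank 1141 with 1.27, followed by TAGLN at rank 1272.

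**Figure D2:**
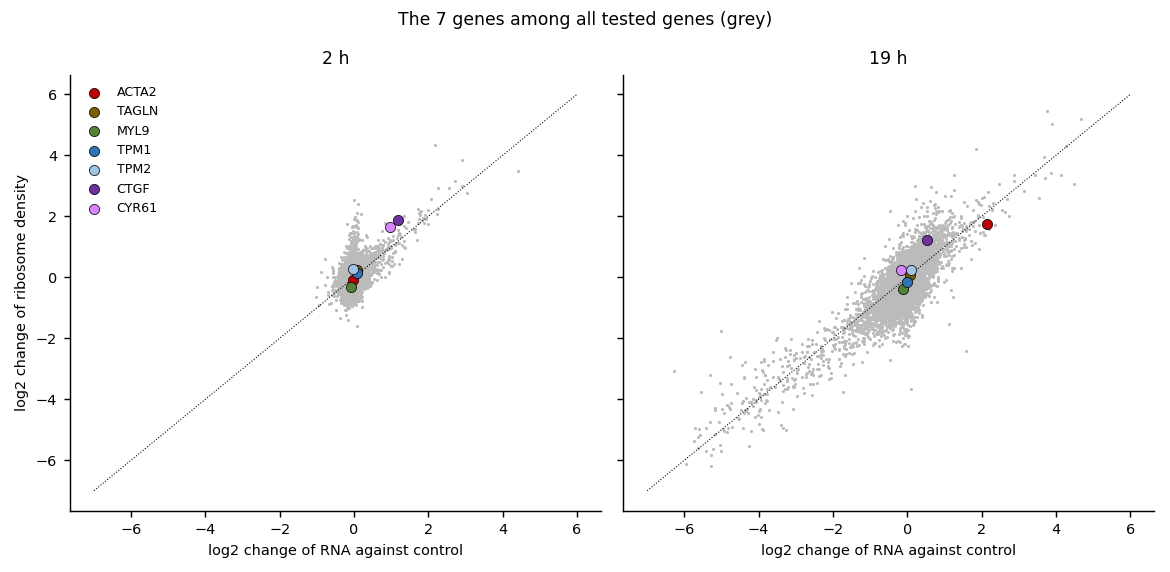
Log2 change of ribosome density against that of RNA at 2 h (left) and 19 h (right) for all 7015 tested genes (grey) and the 7 tested genes described here (coloured). The dotted line marks equal changes. CTGF and CYR61 stand out at 2 h and ACTA2 at 19 h, where its RNA change is 2.15.

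CTGF (ENSG00000118523), a secreted matricellular protein that promotes matrix deposition, was at 169 FPKM in the RNA-Seq control and 383, 261, 203 and 246 after 2, 4, 6 and 19 h. Its ribosome density was 238 FPKM in the control and 868, 423, 453 and 555 after 2, 4, 6 and 19 h. The control was the lowest and 2 h the highest of the 5 libraries in both assays. RNA rose 2.26-fold at 2 h (95% counting interval 2.21 to 2.31) and density 3.65-fold (3.55 to 3.75). RNA was still called higher at 4 h, with a log2 change of 0.63 ± 0.019, and density too, with 0.83 ± 0.022. At 6 h and 19 h the log2 changes of 0.26 and 0.54 in RNA and 0.93 and 1.22 in density were within the wider spread of genes of similar level at these times. From 2 h to 4 h RNA changed by -0.55 and density by -1.03 on the log2 scale.

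CYR61 (ENSG00000142871), of the same CCN family, was at 285 FPKM in the RNA-Seq control and 556, 326, 260 and 252 after 2, 4, 6 and 19 h. Its ribosome density was 326, 1015, 411, 411 and 381 FPKM in the same order. The rise was called at 2 h only, 1.95-fold in RNA (1.91 to 1.99) and 3.12-fold in density (3.04 to 3.19), and at the later times no change against control was called. From 2 h to 4 h its log2 change was -0.77 in RNA and -1.30 in density. With the 2 h library as the baseline, CTGF and CYR61 were both called lower in RNA and density at 4 h and 6 h, and CYR61 also at 19 h. In these comparisons 4.36%, 5.4% and 5.3% of all tested genes were called lower in RNA at 4, 6 and 19 h, and 2.89%, 5.37% and 6.47% in density.

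At 2 h ribosome density rose more than RNA in both CCN genes. Their TE changes were 0.69 ± 0.027 for CTGF and 0.68 ± 0.023 for CYR61, and these were the 2 TE calls at 2 h among the 7 genes, beside 5.49% of all tested genes called higher. A fixed 2-fold rule, which 1.2% of tested genes passed, called neither. Tested genes within 10% of the length of CTGF had a median TE change of 0.05 at 2 h, with 5th and 95th percentiles of -0.44 and 0.54. The density of several matrix genes moved in the same library: 6 of the 12 fibroblast markers were called higher in density at 2 h and none in RNA, beside 4.82% and 3.36% of all tested genes. The summed level of the 12 markers was 6486 FPKM in the Ribo-Seq control and 11141, 7042, 13298 and 15769 after 2, 4, 6 and 19 h, and between 9568 and 12917 in RNA-Seq. Its part in the TE values of CTGF and CYR61 was not tested. The TE change of CTGF was 0.21 at 4 h, 0.67 at 6 h and 0.69 at 19 h, and none of these was called.

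The genes nearest to CTGF in time course were EGR1 (0.18) and IER5 (0.26), both immediate-early genes of the serum and stress response, and TRIB1 (0.27), a pseudokinase gene. EGR1 RNA was 47.8 FPKM in the control and 122, 67.0, 50.1 and 67.9 after 2, 4, 6 and 19 h. CYR61 was at rank 61 from CTGF, with a difference of 0.56. Of the 4 other CCN family genes listed, NOV (CCN3) was the only one in both tables. Its RNA was 46.6 FPKM in the control, 42.2 at 2 h and 67.6 at 19 h, and no change was called in it.

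**Figure D3:**
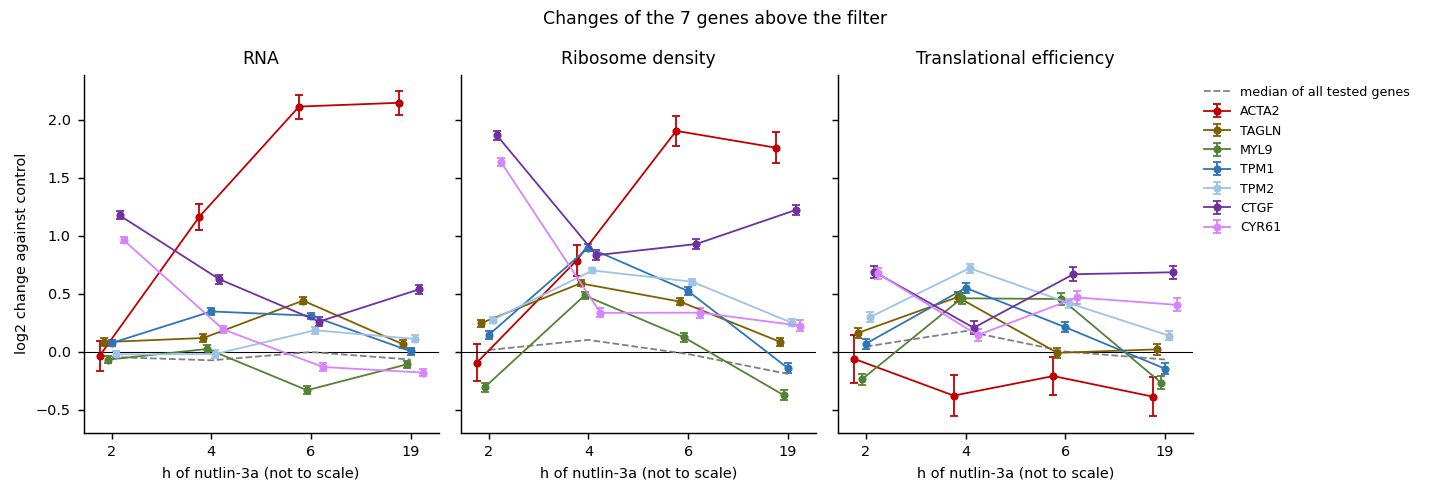
Log2 change against control of RNA, ribosome density and TE at 2, 4, 6 and 19 h of nutlin-3a for the 7 tested genes. Bars are 95% counting intervals by the normal approximation, and the dashed grey line is the median of all 7015 tested genes. ACTA2 lies apart in RNA from 4 h on, and at 4 h the TE values of TAGLN, MYL9, TPM1 and TPM2 lie above those of the other 3 genes.

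The 4 abundant genes TAGLN, MYL9, TPM1 and TPM2 were close to their control level in RNA throughout. After centring on the median of all tested genes, TPM1 was called higher in RNA at 4 h, with a log2 change of 0.42. TAGLN (transgelin, an actin-bundling protein) was between 254 FPKM in the RNA-Seq control and 344 at 6 h. MYL9, a regulatory light chain of myosin, lay between 419 at 6 h and 537 at 4 h. The tropomyosins TPM1 and TPM2, which wrap around actin filaments, were between 446 (control) and 568 (4 h), and between 390 (2 h) and 450 (6 h). Their largest RNA change against control in either direction was 0.44 on the log2 scale, for TAGLN at 6 h. At 19 h their RNA changes were 0.07, -0.11, 0.00 and 0.11 in this order, while that of ACTA2 was 2.15.

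Ribosome density of all 4 was highest at 4 h. TAGLN was at 720 FPKM in the Ribo-Seq control and 854, 1084, 972 and 764 after 2, 4, 6 and 19 h. MYL9 was at 877, 710, 1228, 955 and 676 in the same order. TPM1 was at 618, 684, 1152, 888 and 560, and TPM2 at 977, 1183, 1589, 1486 and 1162. For MYL9 and TPM1 the 19 h library was the lowest of the 5. At 4 h density was called higher for TPM1 (log2 change 0.90 ± 0.015), TPM2 (0.70 ± 0.012) and TAGLN (0.59 ± 0.013, at the edge of the cut-off of 0.59), and was 0.49 ± 0.016 for MYL9, not called. The call of TAGLN was lost after centring on the median of all tested genes (0.49) and without the filter on level. With the 2 h library as baseline MYL9 and TPM1 were called, and TAGLN and TPM2 were not. All 4 were called higher in TE at 4 h, by 0.55 for TPM1, 0.72 for TPM2, 0.47 for TAGLN and 0.46 for MYL9. In that comparison 12.1% of all tested genes were called higher. At 4 h the median change of all tested genes was 0.10 in density, -0.07 in RNA and 0.18 in TE, and at 19 h it was -0.19 in density. Relative to the TE median at 4 h the TE values were 0.37, 0.54, 0.29 and 0.28, and only that of TPM2 was then called higher, beside 4.43% of all tested genes. None of these TE changes reached 2-fold, which 0.998% of tested genes did. No TE change of the 7 genes was called at 6 h or 19 h.

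In levels of translation per RNA, TAGLN and TPM2 stood high before any treatment. Their Ribo-Seq over RNA-Seq ratios in the control were 2.84 and 2.47, and their TE was above that of 97.3% and 95.9% of tested genes. ACTA2, with a ratio of 1.46, was above 83.2%. Both assays were scaled to the same length per gene. The ratio can thus also vary with the coding share of a transcript, which was not examined. The RNA-Seq and Ribo-Seq values of a gene rest on a single isoform, the one with the longest coding sequence. TPM1 and TPM2 are known for many splice forms, and reads that no single reference isoform covers are not in these values.

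CNN1, ANKRD1 and ACTG2 were read in small numbers. Their ratios to control are given without the floor of 1 FPKM. CNN1, calponin of smooth muscle, had 45 reads in the RNA-Seq control (1.19 FPKM) and 38, 37, 19 and 12 after 2, 4, 6 and 19 h. Its RNA at 19 h was 0.244 of control, with a counting interval of 0.118 to 0.469. With the floor it was 0.84 of control. Its Ribo-Seq reads numbered 13, 7, 29, 12 and 3, too few to read a direction from. ACTG2, the gamma-actin of smooth muscle, had 24 to 44 reads in the RNA-Seq libraries, and all 4 counting intervals of its RNA ratio to control included 1. Its Ribo-Seq reads were 48, 36, 75, 34 and 6, and the density ratio at 19 h was 0.19 (0.0664 to 0.444). The part of reads shared among actin genes in the ACTG2 values was not tested.

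ANKRD1, an ankyrin-repeat protein of striated muscle that is induced by YAP in other cells, was highest at 2 h, as the CCN genes were. It had 90 reads in the RNA-Seq control (1.91 FPKM), and 163 (3.06), 55 (1.14), 67 (1.23) and 57 (1.11) after 2, 4, 6 and 19 h. The 2 h library was the highest and the 3 later ones were below control. The RNA ratio to control was 1.60 at 2 h (1.23 to 2.10) and 0.58 at 19 h (0.409 to 0.817). Ribo-Seq gave 51, 74, 21, 28 and 11 reads, with ratios of 1.44 (0.994 to 2.10) at 2 h and 0.328 (0.154 to 0.637) at 19 h. With no filter on level, ANKRD1 was called higher in RNA at 2 h, beside 2.82% of transcripts, and lower in density at 4 h, beside 1.48%.

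The wider list of YAP and TEAD targets, chosen with earlier results of these data known, moved in part with CTGF and CYR61. Of 18 tested genes 5 were called higher in RNA at 2 h and none lower, beside 3.36% of all tested genes called higher, with a median log2 change of 0.12 against -0.05 over all tested genes. The 5 genes, named after their values were seen, were AMOTL2, LATS2, F3, GADD45A and NUAK2. AMOTL2, a scaffold that binds YAP, was at 72.6 FPKM in the RNA-Seq control, 139 at 2 h and 71.6 at 4 h. F3, tissue factor, was at 123, 274 and 128 FPKM. LATS2, the Hippo kinase that YAP itself induces, was at 15.2, 27.6 and 17.9. NUAK2, a kinase related to AMPK, was low throughout, at 2.71 FPKM in the control, 9.18 at 2 h and 5.37 at 4 h. GADD45A, which p53 also induces directly, was at 50.9 in the control, 135 at 2 h and still 130 at 4 h. The other 13 genes had RNA changes within the cut-off at 2 h. At 4 h 2 of the 18 were called higher in RNA, beside 3.51% of all tested genes, and at 6 h none was called. At 19 h only IGFBP3, which binds insulin-like growth factors, was called higher, beside 1.61% of all tested genes. Its RNA was at 47.8 FPKM in the control and 95.6 at 19 h. In density 6 were called higher at 2 h, beside 4.82% of all tested genes.

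**Figure D4:**
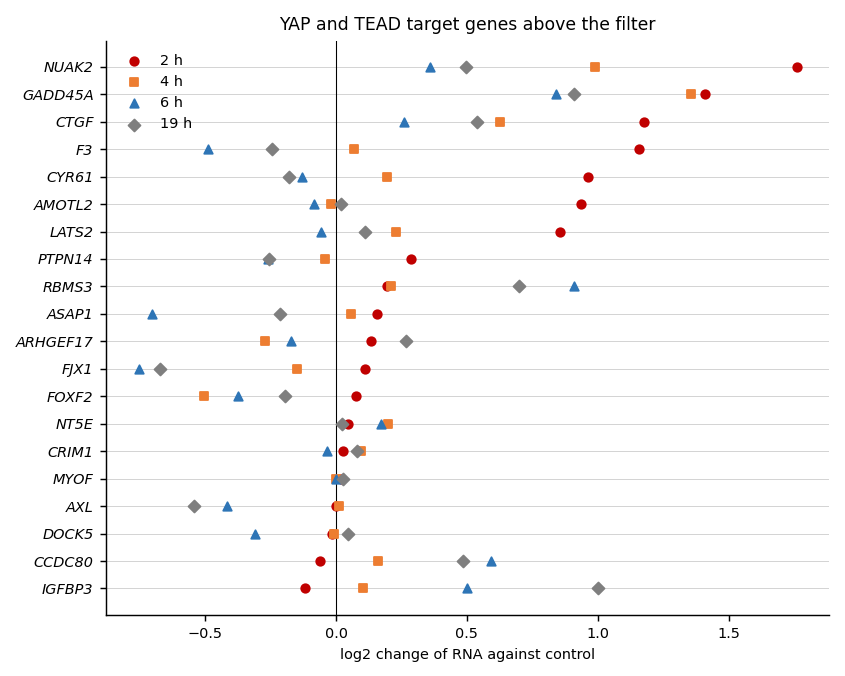
Log2 change of RNA against control at 2, 4, 6 and 19 h of nutlin-3a for CTGF, CYR61 and the 18 other YAP and TEAD target genes tested, ordered by the value at 2 h. The 2 h points of NUAK2, GADD45A, CTGF, F3, CYR61, AMOTL2 and LATS2 lie apart from those of the other 13 genes.

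The coactivators of the pathway are YAP1 and WWTR1. YAP1 was at 59.9 FPKM in the RNA-Seq control and 61.9, 70.8, 79.8 and 77.9 after 2, 4, 6 and 19 h. WWTR1 was at 22.4, 25.0, 26.4, 20.5 and 22.4. Neither was called in RNA at any time, nor in density. Of 15 tested genes of the Hippo pathway, with YAP, TAZ and TEADs, only LATS2 was called in RNA at any time. It is also on the target list, and was called higher at 2 h, beside 3.36% of all tested genes. In density it was likewise the only one called, higher at 2 h, beside 4.82% of all tested genes. In TE, MOB1B was called lower at 4 h and STK3 at 19 h. The share of all tested genes called lower in TE at these times is not given here. These values concern RNA and its translation, and say nothing of where YAP was in the cell.

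SRF was called higher at 2 h, with 25.1 FPKM in the RNA-Seq control and 39.4, 21.7, 20.7 and 21.6 after 2, 4, 6 and 19 h. Its log2 change at 2 h was 0.65 ± 0.036 in RNA and 1.01 ± 0.087 in density. No RNA change of SRF was called at 4, 6 or 19 h. Its ribosome density, at 8.32 FPKM in the control and 16.7, 15.2, 10.3 and 14.1 after 2, 4, 6 and 19 h, was also called higher at 4 h, and its TE was called higher at 4 h (1.08 ± 0.095) and 19 h (0.97 ± 0.11).

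In RNA most other contractile and stress fibre genes were below control at 19 h, when that of ACTA2 was highest. Of 27 tested, 22 were below control, 1 was called higher and 1 lower, and the median log2 change was -0.39 against -0.07 over all tested genes. In ribosome density 14 of the 27 were above control at 6 h and 11 at 19 h. FHL2, a LIM-domain protein that binds actin-linked transcription factors, was the one called higher, with 77.0 FPKM in the control and 107, 178, 145 and 143 after 2, 4, 6 and 19 h. It was called higher in RNA at all 4 times. MYH10, a nonmuscle myosin heavy chain, was called lower, from 30.1 FPKM in the control to 14.0 at 6 h and 12.0 at 19 h. The cytoplasmic actins, named after their values were seen, were at 4061 (ACTB) and 3507 (ACTG1) FPKM in the control and at 2658 and 2300 at 19 h, log2 changes of -0.61 in both that were not called. In RNA 2, 1, 1 and 1 of the 27 were called higher after 2, 4, 6 and 19 h, beside 3.36%, 3.51%, 1.63% and 1.61% of all tested genes. At 6 h MYH10 and ZYX, a focal adhesion protein named after its values were seen, were called lower, ZYX with 247 FPKM in the control and 120 at 6 h. ZYX had been called higher at 2 h, with a log2 change of 0.32. The share of all tested genes called lower is not given here for RNA at 6 h and 19 h or TE at 2 h. The counts called lower in this list therefore cannot be set against a general rate. In TE 6, 6, 5 and 4 of the 27 were called higher after 2, 4, 6 and 19 h, beside 5.49%, 12.1%, 4.01% and 2.55% of all tested genes, and 1 was called lower, at 2 h. MYH9, a nonmuscle myosin heavy chain, and FLNA, which crosslinks actin filaments, also named after their values were seen, were among them at all 4 times. MYH10 was too, with TE changes of 1.04, 0.66, 1.02 and 1.15 after 2, 4, 6 and 19 h. Its density was called higher at 2 h (0.99) and was not called at 19 h (-0.19). The median TE change of the list was 0.11, 0.31, 0.29 and 0.10, against 0.04, 0.18, 0.00 and -0.07 over all tested genes. At 19 h 17 of the 27 were above control in TE and 10 below. The transcripts of MYH9 and MYH10 are long, with 7501 and 7762 bases. The short myosin light chain transcripts MYL12A and MYL12B (1229 and 1249 bases) had TE changes of -0.87 and -1.19 at 19 h, not called. MYL12B was the gene called lower in TE at 2 h. The light chains MYL6 and MYL9, also short (1221 and 1199 bases), had smaller TE changes of -0.29 and -0.27 at 19 h. The long transcript of MYLK (7834 bases) had 0.57, and none of these was called. The part of transcript length in these TE values was not tested.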

How the data were processed

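RNA-Seq and Ribo-Seq of BJ fibroblasts were analysed from 2 tables of FPKM values that the authors deposited, with 5 columns each and no replicates. Per the study's methods, reads were aligned with Bowtie to 1 protein-coding transcript per gene (Ensembl release 65; hg19 per the labels), and only unique hits were kept. Those methods describe translation from coding-sequence reads. For 99.5% of transcripts the same length gave whole reads in both assays, so the 2 assays were scaled to the same length per gene. These lengths do not tell whether Ribo-Seq reads outside the coding sequence were counted. The column names of both assays carry the word total. The study's read statistics give a smaller share of in-frame Ribo-Seq reads for its nutlin-3a run than for its other runs. They cover control, 6 h and 19 h, and the coding share of Ribo-Seq reads differed among these. Its part in the density and TE values was not tested. The assay of each table was taken from its name, which is not decisive, since the table read as RNA-Seq is named for both assays. Of 26 core and linker histone transcripts found in both tables, most of which are made without polyadenylation, 20 were below 1 FPKM in its control and 0 in that of the other table. The terms RNA, density and TE rest on this assignment. The study describes a sequencing-run effect and compares each condition with a control of its own run, which covers 6 h and 19 h. The labels name no run, and none is given for 2 h and 4 h in the sources used here.

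FPKM below 1 was set to 1, and each time point was compared with the control of its assay as a log2 ratio. Genes that reached 5 FPKM in both assays, each in 1 library or more, were tested. A call needed a change of about 1.8 local SDs in a window of 501 genes ranked by mean level, a sliding cut-off after that of the study. The SD is taken across genes and measures no replicate error. Transcript lengths and whole reads were recovered from the spacing of the 3-decimal values for 99.5% of transcripts. They gave counting SEs and 95% exact conditional intervals, which cover counting error only. Ratios printed with such an interval used FPKM without the floor. Scripts were tested on simulated data (Python 3.11.15, numpy 2.4.6, pandas 2.3.3, scipy 1.17.1, matplotlib 3.10.9).

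Genes named were the 10 members, SRF, YAP1, WWTR1, CDKN1A, MDM2, up to 4 genes of each list called in RNA at 19 h, and the 3 tested genes nearest to ACTA2 and to CTGF. Genes outside this rule were named after their values were seen, among them cell type markers, NOV and the targets called at 2 h. Members and lists were chosen with earlier results of these data known. Motifs were searched on both strands of RefSeq promoters (GRCh38.p14). The list of SRF regulators is not reported here, apart from SRF.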

Additional observations from a re-analysis of the deposited data

How the results depend on the processing

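The numbers of the 7 genes called were recomputed under 6 alternatives. With a pseudocount of 1 FPKM or a floor of 5 FPKM they stayed within 1.5 times of those reported at every time. With a fixed change of at least 2-fold, 1 gene was called in RNA at 2 h and 1 at 4 h, 0 in density at 4 h, 2 in density at 19 h, and 0 in TE at 2 h and 4 h. TE at 4 h gave 2 calls without the filter and 2 after centring on the median of all tested genes, of which 1 was higher and 1 lower. With the 2 h library as baseline it gave 1, RNA gave 3 at 6 h and 2 at 19 h, and density gave 3 at 6 h and 2 at 19 h. With that baseline the log2 changes of CTGF at 4 h turned to -0.55 in RNA and -1.03 in density, since 2 h was its highest library. No paired analysis was possible because each group holds 1 library and the labels carry no replicate numbers. Depth limits CNN1, ANKRD1 and ACTG2 most, and the Ribo-Seq library of 19 h had the fewest reads. For 2 h and 4 h no sequencing run is given, so a run and a time point cannot be told apart there.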
